A study of Mus musculus with 2 samples.

Results

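The genes described here are 10 genes of fast skeletal muscle, Mylpf, Tnni2, Tnnt3, Tnnc2, Actn3, Myh3, Myh8, Atp2a1, Myog and Myod1, as they were measured in embryonic mouse heart. They are 10 of the 42462 genes with a matched name, and they were chosen by their measured levels, which differ between the 2 heart libraries of the study. That difference is therefore given as a description, with no test. Each library is total RNA sequencing of 1 pool of hearts from healthy B6NCrl embryos of both sexes at embryonic day 16.5. The pool of replicate 2 held the hearts of 41 embryos, and for replicate 1 the labels state pooling without a number. Both pools carry the same donor identifier, belong to 1 group with no second condition, and gave 1 library each. Each library was made from 10 ng of RNA of more than 200 nt, with ERCC spike-ins. A difference between pools and a difference in how the libraries were prepared thus cannot be told apart.

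Skeletal muscle fibres shorten when myosin of the thick filament pulls on actin of the thin filament, and calcium released inside the fibre starts this by binding troponin C. Fast fibres, slow fibres and heart build the same machine from related genes. Mylpf encodes the regulatory light chain of fast myosin, and Myh3 and Myh8 encode the embryonic and perinatal heavy chains of developing skeletal muscle. Tnni2, Tnnt3 and Tnnc2 encode the inhibitory, tropomyosin-binding and calcium-binding troponins of fast fibres, Actn3 encodes the alpha-actinin of their Z-disc and Atp2a1 the pump SERCA1, which returns calcium to the sarcoplasmic reticulum. Myod1 and Myog encode basic helix-loop-helix factors that commit cells to skeletal muscle and drive their differentiation by binding E-boxes, short sites with the letters CANNTG. Heart muscle is formed without Myod1 and Myog and uses its own forms of the contractile genes.

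Start-site sequences are shown because these genes were chosen as moving together and 2 of them encode E-box binding factors. RefSeq promoters on GRCm38.p6, from 250 bases before to 50 bases after the start, were matched for 6 of the 10 genes, Mylpf, Tnnc2, Myh3, Myh8, Atp2a1 and Myog. Those printed belong to the 2 genes with the largest ratio between the libraries (Atp2a1 and Tnnc2), to a myosin heavy chain and to a regulator, and the capitals mark CANNTG. The windows are chr7:126463024-126463323 on the minus strand for Atp2a1, chr2:164779685-164779984 on the minus strand for Tnnc2, chr11:67276874-67277173 on the plus strand for Myh8 and chr1:134289754-134290053 on the plus strand for Myog.
Atp2a1: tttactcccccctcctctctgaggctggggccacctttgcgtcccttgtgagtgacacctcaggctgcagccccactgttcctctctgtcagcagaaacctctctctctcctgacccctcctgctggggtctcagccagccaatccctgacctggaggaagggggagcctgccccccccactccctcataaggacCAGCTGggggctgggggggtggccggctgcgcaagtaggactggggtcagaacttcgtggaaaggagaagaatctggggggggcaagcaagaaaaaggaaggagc
Tnnc2: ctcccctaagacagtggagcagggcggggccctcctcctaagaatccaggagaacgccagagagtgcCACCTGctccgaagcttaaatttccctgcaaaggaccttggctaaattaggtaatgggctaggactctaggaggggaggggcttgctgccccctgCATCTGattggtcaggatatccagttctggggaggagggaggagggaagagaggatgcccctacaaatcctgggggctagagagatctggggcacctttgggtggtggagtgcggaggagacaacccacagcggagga
Myh8: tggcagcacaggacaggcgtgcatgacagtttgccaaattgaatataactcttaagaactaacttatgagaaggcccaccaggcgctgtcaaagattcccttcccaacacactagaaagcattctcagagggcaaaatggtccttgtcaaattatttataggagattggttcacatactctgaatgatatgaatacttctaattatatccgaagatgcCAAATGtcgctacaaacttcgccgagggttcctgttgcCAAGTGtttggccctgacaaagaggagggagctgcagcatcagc
Myog: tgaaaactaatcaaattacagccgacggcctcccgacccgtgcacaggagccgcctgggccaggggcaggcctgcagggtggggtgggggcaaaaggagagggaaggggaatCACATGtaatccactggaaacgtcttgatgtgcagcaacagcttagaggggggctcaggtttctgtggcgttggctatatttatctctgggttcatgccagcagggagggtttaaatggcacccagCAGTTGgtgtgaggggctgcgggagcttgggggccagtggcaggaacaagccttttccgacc

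All 6 matched promoters held CANNTG, which reads the same on both strands, but so did 72.3% of 32544 promoters of that length. The narrower form CAGCTG, itself a CANNTG, was present in 2 of the 6, Atp2a1 and Mylpf, and in 16.4% of all promoters. For Mylpf the RefSeq window, chr7:127211358-127211657 on the plus strand, lies inside the gene as GENCODE annotates it and not at the gene start printed with its values. TATAAA, searched on both strands, was present in Myh3 and Myh8, 2 of the 6, and in 13.6% of all. The MEF2 consensus was taken as YTAWWWWTAR, where Y is C or T, W is A or T and R is A or G. Searched on both strands, it was found in Myh8 alone among the 6 and in 3.16% of all promoters, and its match there contains that gene's TATAAA match. Sites that depart from it in a letter, such as CTATATTTAT in the Myog window, were not counted. These matches describe letters in the window and are no measure of binding.

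Before the values, the libraries were set against their label. The tables of replicate 2 and replicate 1 hold 40360242 and 37160624 estimated counts. All 12 heart muscle markers reached 1 TPM in both libraries, led by Actc1 (12222 TPM in replicate 2 and 12648 TPM in replicate 1), where TPM is the length-corrected abundance of a gene, scaled to the same total in each library. Spike-ins accounted for 3.41% of replicate 2's counts and 1.62% of replicate 1's. Scaling to them in place of the whole table therefore moved the median log2 ratio of all genes averaging 1 TPM or more, replicate 2 over replicate 1, to -1.08, against -0.05 without it. Ratios between the libraries are given on TPM + 0.1. Scaling to the spike-ins lowers each of them by 1.03, and the scaled value is printed beside some of them only.

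The 10 genes together held 106 TPM in replicate 2 and 43.9 TPM in replicate 1 (mean 74.9 ± 43.9, SD, n = 2), which is 0.0106% and 0.00439% of the table. Of the 10, 9 reached 1 TPM in both libraries and Myod1 did not. By mean level the order was Mylpf, Tnni2, Tnnc2, Tnnt3, Actn3, Myh8, Atp2a1, Myh3, Myog and Myod1. Among neighbours in that order, Actn3 stood above Myh8 and Myog above Myod1 in both libraries with separate intervals in each, and the other neighbours did not separate. The order of Tnni2 and Tnnc2, of Tnnt3 and Actn3, of Atp2a1 and Myh3 and of Myh3 and Myog differed between the libraries. The intervals are the authors' credibility intervals, at a level that is not stated. They cover counting and read-assignment error within a library and not the spread between pools. In bulk tissue, fewer cells of a type and less RNA per cell cannot be told apart.

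**Figure D1:**
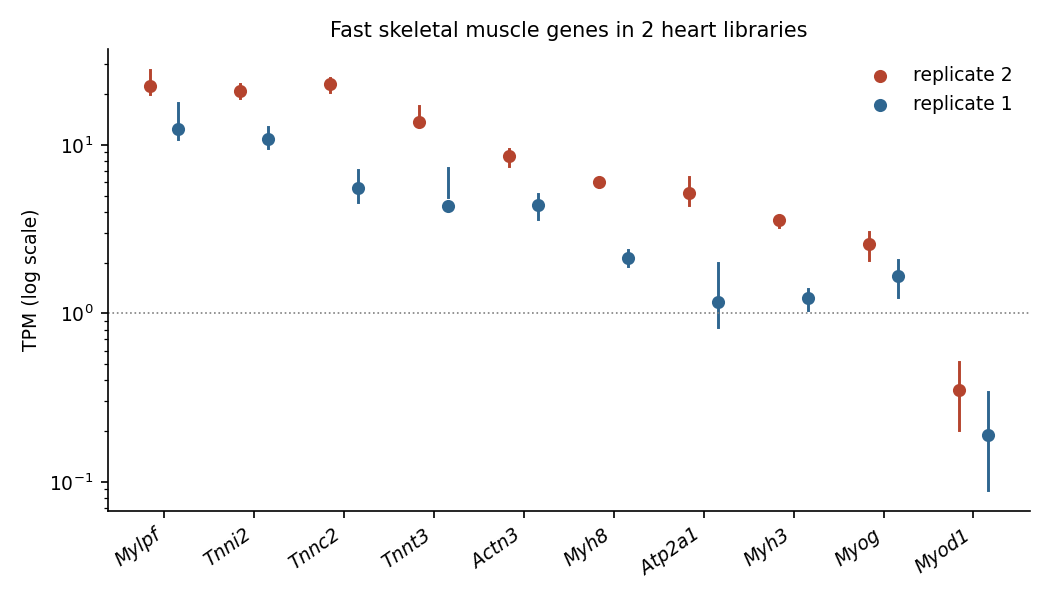
TPM on a log axis of the 10 genes in replicate 2 (red, left of each pair) and replicate 1 (blue), with the authors' intervals as bars and a dotted line at 1 TPM. Every replicate 2 point lies above its replicate 1 point, and the intervals overlap for Myod1 alone; scaled to the spike-ins, Mylpf, Tnni2, Actn3, Myog and Myod1 would be lower in replicate 2.

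The thick filament genes covered both ends of the contractile range. Mylpf (ENSMUSG00000030672.8, chr7:127208890-127214298, plus strand), the fast regulatory light chain, had 22.2 TPM in replicate 2 (interval 19.9 to 27.7, 390 counts) and 12.3 TPM in replicate 1 (10.9 to 17.8, 183 counts). Its mean was 17.3 TPM ± 6.99 and its log2 ratio 0.84, or -0.19 scaled to the spike-ins. Mylpf had the highest mean of the 10, and its intervals lay apart. Myh8 (ENSMUSG00000055775.12, chr11:67277124-67308634, plus strand), the perinatal heavy chain, had 6.04 TPM in replicate 2 (5.62 to 6.34, 1070 counts) and 2.14 TPM in replicate 1 (1.92 to 2.37, 344 counts). Its mean was 4.09 TPM ± 2.76 and its log2 ratio 1.45, or 0.42 scaled to the spike-ins. With a long transcript it held the most counts of the 10 genes at a middling TPM. Myh3 (ENSMUSG00000020908.10, chr11:67078300-67102291, plus strand), the embryonic heavy chain, had 3.58 TPM in replicate 2 (3.25 to 3.80, 628 counts) and 1.23 TPM in replicate 1 (1.05 to 1.39, 194 counts). Its mean was 2.41 TPM ± 1.66 and its log2 ratio 1.47, or 0.43 scaled to the spike-ins. Myh3 and Myh8 lie 174.8 kb apart in the skeletal myosin cluster, and Myh8 stood above Myh3 by nearly the same factor in each pool, with log2 ratios of 0.74 in replicate 2 and 0.75 in replicate 1.

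Of the 3 fast troponins, Tnnc2 was highest in replicate 2 and Tnni2 in replicate 1. Tnni2 (ENSMUSG00000031097.10, chr7:142441808-142444410, plus strand), the inhibitory subunit, had 20.98 TPM in replicate 2 (19.0 to 23.1, 399 counts) and 10.9 TPM in replicate 1 (9.52 to 12.7, 186 counts). Its mean was 15.9 TPM ± 7.16 and its log2 ratio 0.94, or -0.09 scaled to the spike-ins. Tnnt3 (ENSMUSG00000061723.13, chr7:142498836-142516009, plus strand), the tropomyosin-binding subunit, begins 54.4 kb beyond Tnni2 on the same strand. It had 13.56 TPM in replicate 2 (378 counts) and 4.31 TPM in replicate 1 (105 counts), a mean of 8.94 ± 6.54. Its TPM lay below its own interval in both libraries (13.60 to 16.9 in replicate 2 and 4.92 to 7.25 in replicate 1). The log2 ratio of Tnnt3 was 1.63, or 1.32 by the authors' posterior means and 0.60 scaled to the spike-ins.

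Tnnc2 (ENSMUSG00000017300.9, chr2:164777161-164779967, minus strand), the calcium-binding subunit, had 22.9 TPM in replicate 2 (20.6 to 25.1, 409 counts) and 5.56 TPM in replicate 1 (4.55 to 7.11, 89.2 counts). Its mean was 14.2 TPM ± 12.3 and its log2 ratio 2.02, or 0.99 scaled to the spike-ins. It ranked highest of the 10 in replicate 2, where it stood beside Mylpf and Tnni2, and in replicate 1 it had about the level of Actn3 and Tnnt3. Of its 800 exon bases, 592 (74.0%) are also exon of Ube2c, a ubiquitin-conjugating enzyme gene of dividing cells on the opposite strand. Ube2c had 309 TPM in replicate 2 and 326 TPM in replicate 1, a log2 ratio of -0.08. Whether reads were assigned by strand is not given in the sources used here, and without strand the reads of the 2 genes cannot be told apart.

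Actn3 and Atp2a1 belong to the Z-disc and to the calcium store. Actn3 (ENSMUSG00000006457.3, chr19:4861216-4877909, minus strand) had 8.56 TPM in replicate 2 (7.49 to 9.40, 557 counts) and 4.40 TPM in replicate 1 (3.64 to 5.10, 247 counts). Its mean was 6.48 TPM ± 2.94 and its log2 ratio 0.94, or -0.09 scaled to the spike-ins, nearly the values of Tnni2. Atp2a1 (ENSMUSG00000030730.8, chr7:126445858-126463108, minus strand) had 5.20 TPM in replicate 2 (4.39 to 6.47, 287 counts) and 1.16 TPM in replicate 1 (0.83 to 1.98, 49.1 counts). Its mean was 3.18 TPM ± 2.86, and its log2 ratio of 2.07 was the highest of the 10, at 1.04 scaled to the spike-ins and 2.43 in TMM-scaled counts without length correction. Atp2a1 shares 763 of its 3477 exon bases (21.9%) with Rabep2, an endosomal trafficking gene on the opposite strand, which had 17.7 TPM in replicate 2 and 18.5 TPM in replicate 1 (log2 ratio -0.07). Reads from the shared bases are subject to the same limit as those of Tnnc2.

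The regulators had the lowest mean levels of the 10, though in replicate 1 Myog stood above Myh3 and Atp2a1. Myog (ENSMUSG00000026459.5, chr1:134289989-134292548, plus strand), which drives fibre differentiation, had 2.58 TPM in replicate 2 (2.08 to 3.04, 107 counts) and 1.66 TPM in replicate 1 (1.26 to 2.07, 62 counts). Its mean was 2.12 TPM ± 0.651 and its log2 ratio 0.61, or -0.43 scaled to the spike-ins. Its intervals in the libraries nearly touched. Myod1 (ENSMUSG00000009471.3, chr7:46376474-46379099, plus strand), which commits cells to the lineage, had 0.35 TPM in replicate 2 (0.20 to 0.52, 18 counts) and 0.19 TPM in replicate 1 (0.09 to 0.34, 9 counts). The mean of Myod1 was 0.27 TPM ± 0.113, its log2 ratio was 0.63, or -0.40 scaled to the spike-ins, and its intervals overlapped, so no difference was detectable at this depth. Myog exceeded Myod1 by log2 ratios of 2.57 in replicate 2 and 2.60 in replicate 1.

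Across the set, all 10 genes were higher in replicate 2 on TPM, though 5 of the 10 (Mylpf, Tnni2, Actn3, Myog and Myod1) were lower when scaled to the spike-ins. The median log2 ratio was 1.20, a 2.30-fold difference, or 0.16 scaled to the spike-ins, and the range was 0.61 for Myog to 2.07 for Atp2a1. Over 14830 genes averaging 1 TPM or more the median was -0.05, or -1.08 scaled to the spike-ins. The robust spread of a single library over protein-coding genes was 0.14. Of the 8 members with a mean of at least 100 counts, 5 were over 2-fold higher in replicate 2 with separate intervals, namely Tnnt3, Tnnc2, Myh3, Myh8 and Atp2a1. Of 12985 genes with such a count, 315 (2.43%) met this rule in that direction and 103 (0.793%) in the other. Just inside the 2-fold threshold stood Myh8 at 1.45, and just outside it Actn3 and Tnni2 at 0.94. Of the 10 genes, 9 were higher in replicate 2 with separate intervals, whatever the size of the difference, against 11.1% of the 12985 genes. The sets are unlike, since Myog and Myod1 fall under the minimum of 100 counts that the 12985 genes met. Since the choice of the genes used this contrast, nothing is read from these numbers of genes. Of the 5 genes over 2-fold, 4 have another gene overlapping them on the genome, of which Tnnt3 and Myh3 share no exon base with it. Among the 6 genes without an overlapping gene, 1, Myh8, was over 2-fold, and Myog and Myod1 had too few counts to be called.

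The transcripts that carried the signal differed in how well they were resolved. Tnnc2 was assigned whole to Tnnc2-201 in both libraries, and Myog and Myod1 have 1 transcript each in the annotation. Myh8-201 held 96.7% of the Myh8 TPM in replicate 2 and 97.7% in replicate 1, and Tnni2-201 held 85.2% of the Tnni2 TPM in replicate 2 and 87.4% in replicate 1. For these genes the libraries gave the same main transcript at nearly the same share. Mylpf-201 held 84.9% of its gene's TPM in replicate 2 and 76.7% in replicate 1, where the rest lay on Mylpf-203, a retained-intron transcript. Actn3-202, another retained-intron transcript, held 31.0% of the Actn3 TPM in replicate 2 and 35.9% in replicate 1, so the coding transcript Actn3-201 held 69.0% and 64.1%.

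Myh3, Tnnt3 and Atp2a1 were less well resolved. Myh3-201 held 30.9% of the Myh3 TPM in replicate 2 and 83.4% in replicate 1, and Myh3-202 held 62.7% in replicate 2 and 0% in replicate 1. By the authors' posterior means, however, Myh3-201 held 32.7% in replicate 2 and 35.1% in replicate 1, so the apparent switch depends on which of the authors' estimates is read. Tnnt3, known for extensive alternative splicing, has 26 transcripts in the tables, of which 17 stood at 0 in both libraries and 2 had TPM in both. These were Tnnt3-215, with 36.2% in replicate 2 and 52.6% in replicate 1, and Tnnt3-202, with 45.8% and 25.8% in the same order. By posterior means their shares were 24.3% in replicate 2 and 18.7% in replicate 1 for Tnnt3-215, and 32.9% in replicate 2 and 8.15% in replicate 1 for Tnnt3-202. Atp2a1-202, a coding transcript of 681 nt, held 54.3% of the Atp2a1 TPM in replicate 2 and 64.0% in replicate 1, but 17.0% and 23.4% of the gene's counts, since TPM weighs short transcripts up. Atp2a1-201 has 3477 nt. A further Atp2a1 transcript, of 328 nt and without a matched name, had 0 TPM in both libraries. By posterior means it held 4.66% in replicate 2 and 11.75% in replicate 1. Over the 9 genes averaging 1 TPM or more, the median share of the main transcript was 80.8%, that of Mylpf.

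**Figure D2:**
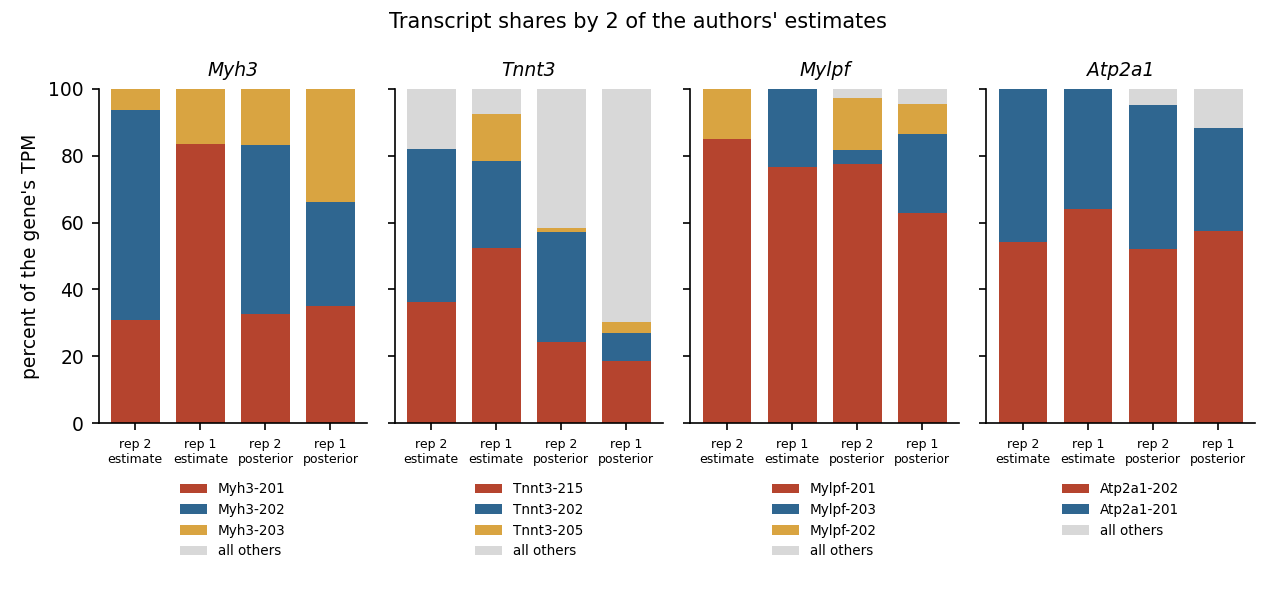
Percent of each gene's TPM held by its main transcripts for Myh3, Tnnt3, Mylpf and Atp2a1, in replicate 2 and replicate 1 by the authors' TPM estimate (left pair of bars) and by their posterior mean (right pair). The share of Myh3-201 is 30.9% in replicate 2 and 83.4% in replicate 1 by the first estimate, and 32.7% and 35.1% by the second.

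The level of each gene was next set against a related form or, for the 2 regulators, against an unrelated factor of heart formation. The choice of the genes did not involve this comparison. The fast genes stood far below their heart forms in both pools. Over the 14 pairs whose partner is not one of the 10 genes, the median log2 ratio of the gene over its partner was -7.49 in replicate 2 and -8.50 in replicate 1 (mean -8.05 ± 0.71, SD, n = 2). That median mixes unlike pairs, since it includes the regulators and the slow skeletal form Tnnt1, and some genes and partners enter more than once. Mylpf had 0.350% of the TPM of the ventricular light chain Myl2 in replicate 2 and 0.151% in replicate 1, and 0.542% and 0.426% of that of the atrial light chain Myl7. The widest gap was that of Myh3 to the beta-myosin heavy chain Myh7 (0.139% in replicate 2 and 0.0379% in replicate 1, mean log2 ratio -10.35 ± 1.27), while Myh8 stood at -9.61 ± 1.26 to Myh7. Myh3 stood at -8.64 ± 0.88 to the alpha-myosin heavy chain Myh6.

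Among the troponins, Tnnt3 had 0.161% of the TPM of cardiac troponin T, Tnnt2, in replicate 2 and 0.0538% in replicate 1. Its gap to the slow skeletal form Tnnt1 was the narrowest of the 14, at 9.00% in replicate 2 and 3.04% in replicate 1 (log2 ratio -4.24 ± 1.09). Tnni2 had 0.647% of the TPM of cardiac troponin I, Tnni3, in replicate 2 and 0.336% in replicate 1, and stood at -7.93 ± 0.84 to the slow form Tnni1, which the heart also uses before birth. Tnnc2 had 0.565% in replicate 2 and 0.137% in replicate 1 of Tnnc1, the troponin C that heart and slow fibres share. Actn3 had 0.748% in replicate 2 and 0.359% in replicate 1 of Actn2, the alpha-actinin of heart. Atp2a1 had 2.23% of the TPM of the cardiac pump Atp2a2 in replicate 2 and 0.459% in replicate 1, at a log2 ratio of -6.55 ± 1.55, or -7.92 in counts without length correction. For the regulators, Myog stood at -5.10 ± 0.65 to Gata4 and Myod1 at -8.17 ± 0.43 to Nkx2-5, both factors of heart formation. In all 14 pairs the direction was the same in both pools, and each mean was more than 2 SD from 0. No p-value is given, since the exact sign-flip test (two-sided) has a smallest p of 0.5 here.

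**Figure D3:**
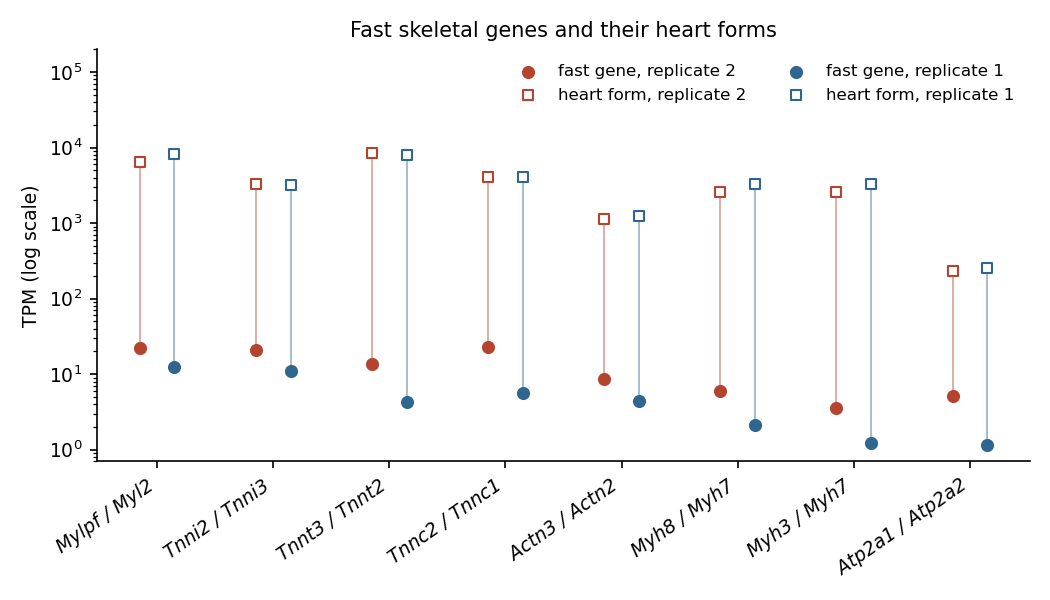
TPM on a log axis of 8 fast skeletal genes (filled circles) and of their heart forms (open squares), joined by lines, in replicate 2 (red, left) and replicate 1 (blue, right). Each fast gene lies far below its heart form in both libraries, from 0.0379% for Myh3 of Myh7 in replicate 1 to 2.23% for Atp2a1 of Atp2a2 in replicate 2.

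In the other lists of the skeletal muscle programme, few genes with a mean of at least 100 counts met the 2-fold rule, and the adult fast heavy chains were near 0. Genes under that count could not be called, and those past 2-fold are given with their counts. Of 13 other contractile genes of fast fibres, 3 had enough counts and 0 of these 3 met the rule in either direction (against 2.43% higher and 0.793% lower among all such genes). The median log2 ratio over all 13 was -0.03, and 4 of the 13 reached 1 TPM in both libraries. Among those with too few counts, Myh13, a heavy chain of specialised fast muscles, had a log2 ratio of 1.03 (12.8 counts in replicate 2 and 7.60 in replicate 1) with overlapping intervals, or -0.01 scaled to the spike-ins. Myl1, the essential light chain of fast fibres that embryonic heart also expresses, had 451 TPM in replicate 2 and 278 TPM in replicate 1 (log2 ratio 0.70 with separate intervals, or -0.34 scaled to the spike-ins). The Z-disc gene Myoz1 had 10.2 TPM in replicate 2 and 9.08 TPM in replicate 1, and Mybpc2, fast myosin-binding protein C, had 3.56 and 3.87 TPM in the same order. Both had overlapping intervals. The adult fast heavy chain Myh4 had 0 counts in both libraries, which allows up to 3 counts per library, or 0.0172 TPM in replicate 2 and 0.0191 TPM in replicate 1. Myh1 had 0.12 TPM in replicate 2 and 0.25 TPM in replicate 1, and Myh2 had 0.02 and 0.04 TPM in the same order. Among these skeletal heavy chains, those of developing muscle reached 1 TPM in both libraries, at 3.58 and 1.23 TPM for Myh3 and 6.04 and 2.14 TPM for Myh8.

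Among 10 genes of the skeletal thin filament and of sarcomere assembly, 9 had enough counts, of which 1 was over 2-fold higher in replicate 2 and 0 were lower. The median log2 ratio over the 10 was 0.12. The gene over 2-fold was nebulin, Neb, which sets thin filament length in skeletal muscle, at 6.27 TPM in replicate 2 and 3.02 TPM in replicate 1 (log2 ratio 1.03, or -0.01 scaled to the spike-ins). Skeletal alpha-actin, Acta1, which heart also expresses, had 197 TPM in replicate 2 and 164 TPM in replicate 1. The chaperone Unc45b had 149 and 168 TPM and Cap2, an actin regulator, 144 and 134 TPM, with replicate 2 given first. Among 12 slow skeletal genes, all at 1 TPM or more in both libraries, 1 was over 2-fold higher in replicate 2 and 0 lower. It was Mybpc1, slow myosin-binding protein C, with 7.70 TPM in replicate 2 and 3.31 TPM in replicate 1 (log2 ratio 1.19, or 0.16 scaled to the spike-ins). The slow list as a whole, most of which heart shares, had a median of -0.07 and was led by Myl2, Myl3 and Tnnc1. Myl3 had 3616 TPM in replicate 2 and 4603 TPM in replicate 1.

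Of 13 genes of skeletal calcium release, 8 had enough counts and 0 of the 8 met the 2-fold rule in either direction, with a median log2 ratio of -0.10 over the 13. The highest of them are expressed in heart as well. The cation channel gene Tmem38a had 97.5 TPM in replicate 2 and 95.0 TPM in replicate 1, the calcium buffer Casq1 84.3 and 90.5 TPM, and triadin, Trdn, 42.3 and 39.7 TPM in the same order. Members best known from skeletal muscle were low, with few counts. The release channel Ryr1 had 0.09 TPM in replicate 2 and 0.05 TPM in replicate 1 (41 and 20 counts). The voltage sensor Cacna1s had 0.22 and 0.26 TPM (23 and 14.7 counts) in the same order, and the intervals of both genes overlapped. The log2 ratio of Cacna1s was -0.17 on TPM + 0.1 and 0.52 in TMM-scaled counts, so its direction depends on the measure. Cacng1, a subunit of the skeletal calcium channel, had 1.00 TPM in replicate 2 and 0.26 TPM in replicate 1 (34 and 8 counts), a log2 ratio of 1.61 with separate intervals, or 0.58 scaled to the spike-ins. Mrln, which encodes a micropeptide that inhibits the calcium pump of skeletal muscle, had 1.53 TPM in replicate 2 and 0.54 TPM in replicate 1 (15 and 5 counts) with overlapping intervals. Of 12 metabolic enzymes of fast fibres, 10 reached 1 TPM in both libraries, 0 of the 9 with enough counts met the 2-fold rule and the median over the 12 was 0.02. Muscle creatine kinase, Ckm, had 1937 TPM in replicate 2 and 1849 TPM in replicate 1, the glycolytic enzyme Aldoa 1867 and 2066 TPM, and the mutase Pgam2 909 and 876 TPM. Under the count minimum, the AMP deaminase gene Ampd1 had 31 counts in replicate 2 and 7 in replicate 1 (log2 ratio 1.51), and the bisphosphatase gene Fbp2 had 21 and 7 counts (1.13), both with overlapping intervals.

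Of 16 further genes of myogenic regulation and fusion, 6 reached 1 TPM in both libraries and 0 of the 7 with enough counts met the 2-fold rule. Their median log2 ratio was 0.23, or 0.51 over the 6 averaging 1 TPM or more. The list was led by factors with roles outside skeletal muscle, among them Tcf21 (41.4 TPM in replicate 2 and 56.8 TPM in replicate 1) and Msc (9.16 and 7.04 TPM). The other factors of the Myod1 family were close to 0, with 8 counts in replicate 2 and 4 in replicate 1 for Myf5 and 14 and 3 counts for Myf6, whose log2 ratio was 1.35 with overlapping intervals. Pax7, a marker of muscle progenitors, had 0 counts in replicate 2 and 1 in replicate 1. Among 9 genes of the nerve-muscle synapse, 4 reached 1 TPM in both libraries and 0 of the 4 with enough counts met the 2-fold rule. The median was 0.45 over all 9 and -0.03 over the 5 averaging 1 TPM or more. Rapsn, which clusters acetylcholine receptors, led that list with 32.6 TPM in replicate 2 and 36.3 TPM in replicate 1, followed by Colq with 14.9 and 13.7 TPM and Dok7 with 11.8 and 14.5 TPM. Of the 9, 6 were higher and 3 lower in replicate 2, and all 9 were lower scaled to the spike-ins. Under the count minimum, Musk had 13 counts in replicate 2 and 2 in replicate 1 (log2 ratio 1.00). In the same order Chrnd had 9 and 3 counts (0.58), Chrna1 35 and 18 (0.55) and Chrng 93 and 66 (0.45). The intervals of each of these overlapped.

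**Figure D4:**
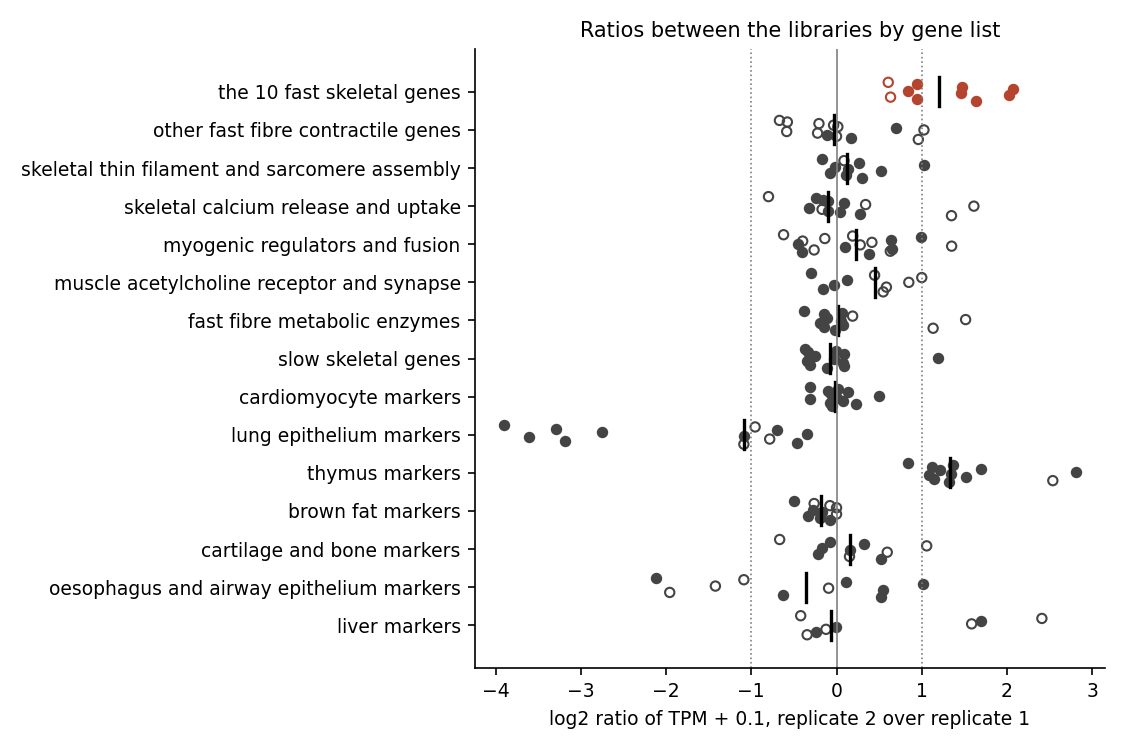
Log2 ratio of TPM + 0.1, replicate 2 over replicate 1, for each gene (point) of the 10 fast skeletal genes (red) and of 14 other lists (grey); filled points have a mean of at least 100 counts, vertical bars are medians over all genes of a list and dotted lines mark 2-fold. The 10 genes have a median of 1.20, the thymus markers 1.33 and the lung markers -1.09; scaled to the spike-ins every point would lie 1.03 further left.

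Markers of tissues that lie next to the heart were read beside these values, since skeletal muscle, lung and thymus can all adjoin a dissected heart. The 12 thymus markers were all higher in replicate 2, or 11 of 12 scaled to the spike-ins, and 10 of the 11 with a mean of at least 100 counts were over 2-fold higher. Their summed level was 391 TPM in replicate 2 and 157 TPM in replicate 1, with a median log2 ratio of 1.33. The T-cell kinase Lck had 95.9 TPM in replicate 2 and 38.4 TPM in replicate 1, the T-cell receptor chain Cd3g 78.5 and 31.0 TPM, and none of the 12 was at 0. The 12 lung epithelium markers were all lower in replicate 2, 6 of the 9 with enough counts over 2-fold, at a summed 147 TPM in replicate 2 and 1023 TPM in replicate 1 and a median of -1.09, or -1.92 over the 10 averaging 1 TPM or more. The surfactant gene Sftpc had 96.7 TPM in replicate 2 and 883 TPM in replicate 1, and none of the 12 was at 0. On TPM the fast skeletal genes differed between the pools in the direction of the thymus markers and opposite to the lung markers. For 5 of the 10 genes this direction turned when scaled to the spike-ins. The 10 genes were chosen for this contrast, and the lists with earlier results of these data known, so nothing is read from the shared direction. The part of tissue beside the heart in the levels of the 10 genes was not tested.

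Heart muscle and the other neighbouring tissues had list medians nearer 0. The 12 heart muscle markers had a median log2 ratio of -0.02, and 0 of the 12, all with enough counts, met the 2-fold rule. With separate intervals, 4 of the 12 were higher and 6 lower in replicate 2, from 0.50 for Myl7 to -0.31 for Gata4. Of the 10 brown fat markers, 0 of the 6 with enough counts met the rule, the median was -0.18, and the defining gene Ucp1 had 0 counts in both libraries, which allows up to 0.0655 TPM in replicate 2 and 0.0727 TPM in replicate 1. Of the 10 cartilage and bone markers, 0 of the 6 with enough counts met the rule, with a median over the 10 of 0.15 and a summed 42.4 TPM in replicate 2 and 39.2 TPM in replicate 1. The cartilage matrix gene Matn1, under the count minimum, had 52 counts in replicate 2 and 20 in replicate 1, a log2 ratio of 1.06 with separate intervals, or 0.02 scaled to the spike-ins. Among 10 markers of oesophagus and airway epithelium, 6 had enough counts, of which Trp63 was over 2-fold higher in replicate 2 (log2 ratio 1.01, or -0.02 scaled to the spike-ins) and Krt4 over 2-fold lower (-2.11). The median over the 10 was -0.36, and Foxa2 (-1.96), Krt13 (-1.42) and Sox2 (-1.09), also a lung marker here, were lower with fewer counts. Among 8 liver markers, 3 had enough counts, of which Apoa1 was over 2-fold higher in replicate 2 (1.69, or 0.66 scaled to the spike-ins). With fewer counts, Apob had a log2 ratio of 2.41 with separate intervals (118 counts in replicate 2 and 16 in replicate 1) and Hnf4a 1.58 with overlapping ones (57 and 16 counts), and the median over the 8 was -0.06.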

How the data were processed

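Total RNA of 2 pools of mouse embryonic hearts was sequenced, 1 library per pool. Each library was quantified separately on mm10 with annotation M4, per the file headers and deposited notes. The aligner, the quantifier and the strand setting were not given in the sources used here. For genes and transcripts the deposited tables give estimated counts, TPM over all rows with spike-ins included, and posterior mean TPM. The bounds of the credibility intervals are non-negative signal values on the TPM scale, deposited as the authors computed them. The percent of a gene's TPM on each transcript was also deposited. TPM divides by effective length, so short transcripts carry more error, and more spike-in reads lower every mouse gene.

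Names came from GENCODE M21 on GRCm38, the assembly of mm10, and 42462 of 43346 Ensembl identifiers matched. Ratios are log2 of TPM + 0.1, replicate 2 over replicate 1. The rule for 2-fold differences asked for a mean of at least 100 counts and separate intervals. As alternatives, counts rounded to whole numbers were scaled with TMM factors of edgeR 4.0.16 (with 0.5 added to each count for CPM) and size factors of DESeq2 1.42.0 in R 4.3.3, and TPM was scaled to the spike-ins. No count test was run, since 1 group of 2 libraries leaves an exact two-sided sign-flip p no lower than 0.5. Tables were handled in Python 3.11.15 with pandas 2.3.3. The step for ratios and calls was tested on simulated data.

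The 10 genes and the gene lists were chosen with earlier results of these data known. Named genes were the 10 genes, their pair partners, up to 3 genes of highest mean TPM and each gene over 2-fold per list, and the 20 protein-coding genes of largest ratio. Others (Ube2c, Rabep2, Ryr1, Cacna1s, Myf5, Myf6, Pax7, Myh1, Myh2, Myh4, Myh13, Cacng1, Mrln, Ampd1, Fbp2, Musk, Chrnd, Chrna1, Chrng, Matn1, Foxa2, Krt13, Sox2, Apob, Hnf4a and Ucp1) were named after their values were seen. List medians cover all genes of a list unless stated; the single values of some list genes are not reported here. Reads carry no molecular identifiers and are not independent molecules, so intervals and floors (3 counts) cover counting and assignment error only.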

Additional observations from a re-analysis of the deposited data

How the results depend on the processing

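The median log2 ratio of the 10 genes, 1.20 on TPM + 0.1, was 0.96 with a pseudocount of 1, 1.45 over those averaging 1 TPM or more and 0.16 scaled to the spike-ins, and between 1.13 and 1.30 under the other 4 alternatives. Scaled to the spike-ins, the log2 ratio turned negative for Mylpf (-0.19), Tnni2 (-0.091), Actn3 (-0.090), Myog (-0.43) and Myod1 (-0.40). That scaling subtracts 1.03 from each ratio by construction. The count of genes over 2-fold, 5, became 8 at a fold of 1.5, for which the share of all genes was not computed. It became 1 among the 6 genes that no other gene overlaps, an alternative chosen after seeing the data. Of those 6, Myog and Myod1 were under the count minimum and could not be called. The genes left out include Tnnt3 and Myh3, which share no exon base with the gene overlapping them. Under the other alternatives the count was 5 or 6 and held the same 5 genes. The median main transcript share, 80.8%, was 70.2% by posterior means, and the cause of that fall was not tested. In replicate 2 alone it was 84.9%, the share of Mylpf-201, and in replicate 1 alone 83.4%, the share of Myh3-201. The single-library medians thus fall on different genes. The number of genes at 1 TPM stayed at 9 throughout, the summed TPM was 43.9 to 106 leaving out a library, and the median over the pairs with partners outside the 10 genes was -8.50 to -7.49. No paired analysis was possible because there is 1 group. Depth limits Myod1 (18 and 9 counts in replicate 2 and replicate 1), and the counts of Atp2a1 (49.1) and Tnnc2 (89.2) in replicate 1 limit their ratios.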

Other observations

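The 20 protein-coding genes with the highest log2 ratio, replicate 2 over replicate 1, were listed. They came from 12296 with a mean of at least 100 counts. They are the upper end of the ratios and not a set matched to the 10 genes. Of the 10 genes, 2 were among the 20, Atp2a1 and Tnnc2. The ranking rests on 2 libraries and on the contrast by which the 10 genes were chosen. Atp2a1 ranked 14 and Tnnc2 19 of the 12296, and the others of the 10 genes with enough counts ranked 37 (Tnnt3), 52 (Myh3), 54 (Myh8), 189 (Actn3), 190 (Tnni2) and 233 (Mylpf). Of the 20, 1 stood in the thymus list, Cd8a, with 7.34 TPM in replicate 2 and 0.96 TPM in replicate 1, and 17 stood in no list. Those include the T-cell genes Cd8b1 (14.2 TPM in replicate 2 and 2.61 TPM in replicate 1), Cd28 (2.93 and 0.68 TPM) and the cytokine receptor gene Il21r (2.34 and 0.49 TPM). Zg16, a secretory granule gene of epithelium, ranked first with 14.5 TPM in replicate 2 and 0.14 TPM in replicate 1. Several of the rest carry names of gene copies (Rpl9-ps6, Ftl1-ps1, Tpm3-rs7 and Hmga1b) and share sequence with another gene, so the assignment of their reads is uncertain.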
